A study of Rattus norvegicus with 16 samples.

Results

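The neurofilament genes Nefl, Nefm and Nefh and the axon growth gene Gap43 were followed in laser-captured pieces of rat muscle. Members were taken by symbol from the annotation of the array, which gave 4 genes, of 14217 named genes, and 6 probe sets: 2 for Nefl, 1 for Nefm, 1 for Nefh and 2 for Gap43. Messenger RNA came from 4 rats, numbered 15, 25, 27 and 29, and from 2 of their muscles. The extraocular muscles (EOM) were the recti that turn the eyeball, and the limb muscle was the tibialis anterior (TA) of the shin. Per rat and muscle, 1 array held captures made at neuromuscular junctions (EOM_synapse, TA_synapse) and 1 held captures of fibre away from them (EOM_fiber, TA_fiber), so each of the 4 groups had 4 arrays. No treatment or genotype separates the groups, and the strain, sex and age of the animals are not given in the sources used here. Each capture pooled about 1000 junctions of a muscle, or a like amount of fibre, and holds whatever else lay in the cut tissue. In such bulk captures, fewer cells of a type and less RNA per cell cannot be told apart.

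Neurofilaments are the intermediate filaments of neurons. The light chain (Nefl), medium chain (Nefm) and heavy chain (Nefh) assemble together with other filament proteins and set the calibre of large axons, those of motor neurons among them. Gap43 is a membrane-bound protein of the growth cone, made strongly when axons grow or regrow. It is also made by Schwann cells that have lost contact with an axon. Neuronal messenger RNA is concentrated in the cell body, which for a motor neuron lies outside the muscle. Nefl and Nefm are neighbours on the rat genome, with 0 protein-coding genes between them in the gene table of assembly GRCr8.

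The captures carried the marks of their labels. The junctional acetylcholine receptor subunit Chrne averaged 11.36 ± 0.14 in EOM_synapse and 4.99 ± 0.83 in EOM_fiber, and 10.42 ± 0.35 in TA_synapse and 4.39 ± 0.08 in TA_fiber (quantile-normalized log2(intensity + 16), SD, n = 4 each). The extraocular myosin Myh13 was 8.58 ± 0.33 higher in EOM_fiber than in TA_fiber on the same scale (difference ± SE, limma adjusted p = 3.48e-09). A less clean label check was the receptor subunit Chrna1, higher at the junction by 3.85 in EOM and 6.75 in TA. It averaged 8.96 ± 0.28 in EOM_fiber and 5.43 ± 0.98 in TA_fiber (SD), a difference of 3.52 ± 0.32 (SE, limma adjusted p = 1.55e-05). EOM_fiber thus held more RNA of this subunit than TA_fiber, and its part in the results below was not tested. Array medians ran from 33.3 to 56.9 in deposited intensity, and 3' to 5' ratios of the GAPDH control from 7.84 to 19.0, with overlapping ranges in the 4 groups. The 3' to 5' ratio of the beta-actin control ran from 5.27 to 26.9 in EOM_synapse and 13.1 to 22.9 in TA_synapse, and from 8.35 to 12.0 in EOM_fiber and 10.3 to 28.0 in TA_fiber. It was lower in EOM_fiber than in TA_fiber by median (8.58 and 20.0), with overlap through the TA_fiber array of rat 27, and its part in the results below was not tested. No detection call comes with the values, so the array median serves here as the line between dim and measured signals.

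Only Nefm and 1 of the 2 Gap43 probe sets cleared that line on at least 4 arrays, the filter for testing. Nefm (1367845_at) was above the array median on 3 of 4 EOM_synapse arrays, 4 of 4 EOM_fiber arrays, 1 of 4 TA_synapse arrays and 0 of 4 TA_fiber arrays. Nefm thus passed only because of its EOM arrays, so the filter and the EOM against TA tests on it are not independent. Fitted over all probe sets with no filter, Nefm had limma adjusted p of 0.00068 for EOM_fiber minus TA_fiber. For EOM_synapse minus TA_synapse that fit gave 0.0377. Gap43 (1367930_at) was above the median on 4 EOM_synapse, 4 EOM_fiber, 3 TA_synapse and 1 TA_fiber arrays. Nefl, Nefh and the other Gap43 probe set did not pass.

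**Figure D1:**
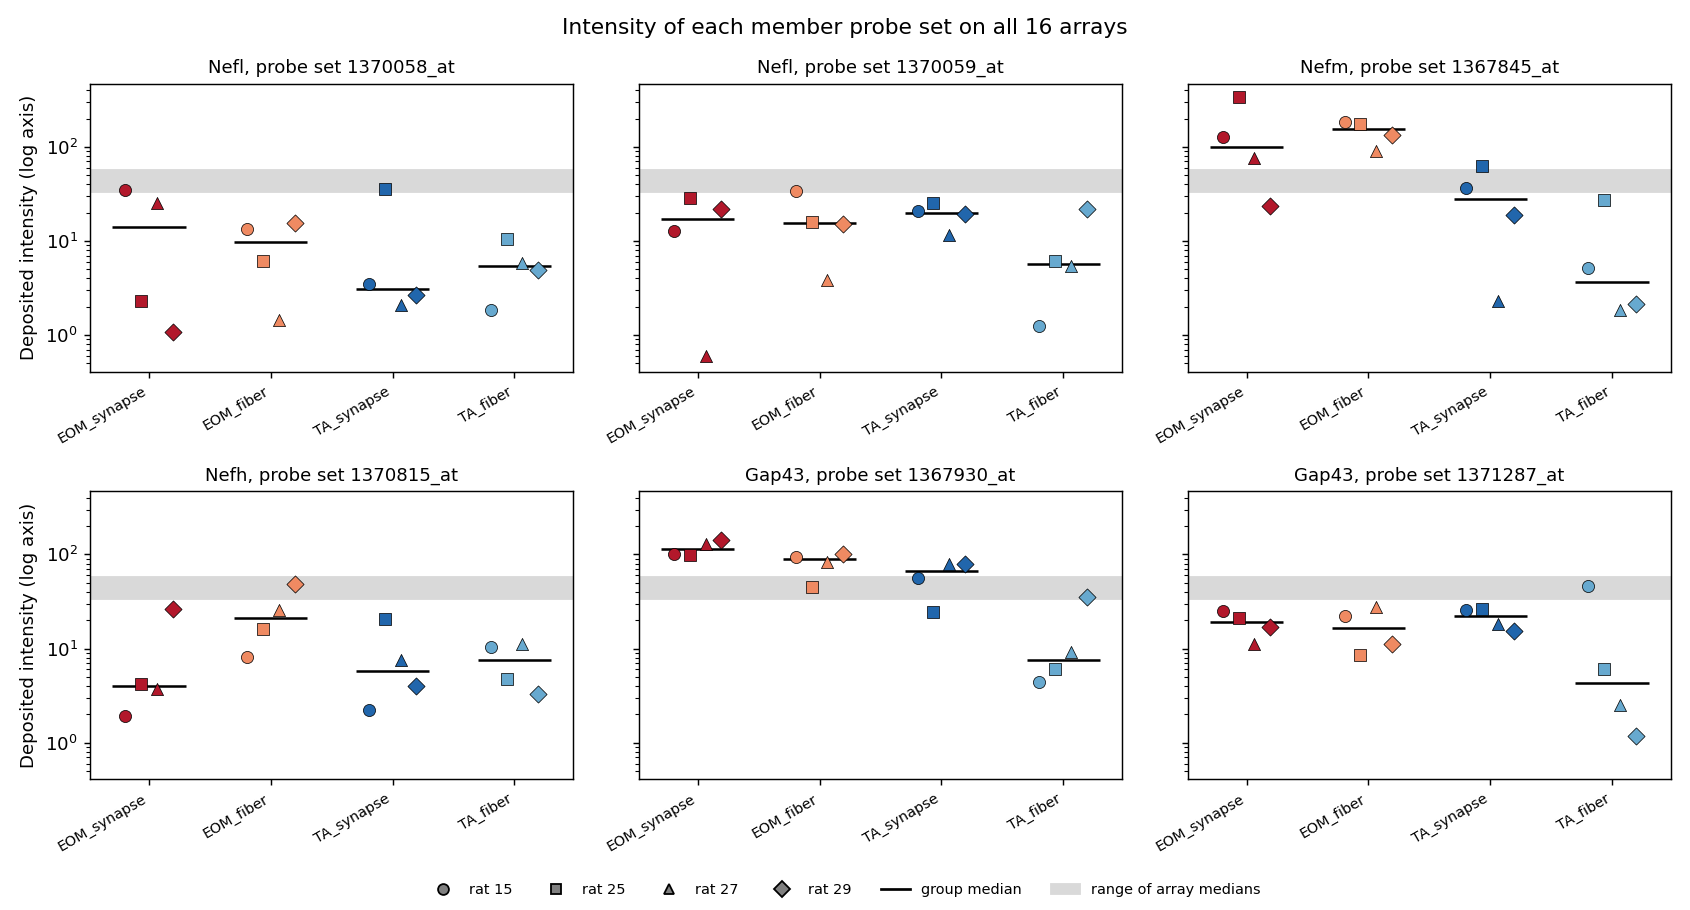
Deposited intensity (log axis) of the 6 probe sets on all 16 arrays, by group, with a symbol for each rat, a line at the group median and a grey band over the range of the array medians (33.3 to 56.9). Nefm and Gap43 1367930_at lie above the band in most EOM captures and below it in nearly all TA_fiber captures, while Nefl, Nefh and Gap43 1371287_at lie in or below it everywhere.

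Nefm, the medium chain, was the one neurofilament gene that could be tested. It was higher in EOM than in TA in both kinds of capture. In EOM_synapse its intensity was 126, 341, 75.7 and 23.6 in rats 15, 25, 27 and 29. In EOM_fiber it was 182, 175, 90.7 and 133. All 4 EOM_fiber arrays were bright, whereas the junction captures of the same muscle spread over more than a factor of 10, from a dim array in rat 29 to the brightest of the series in rat 25. In TA_synapse the intensity was 36.2, 62.6, 2.32 and 19.1, and in TA_fiber it was 5.14, 27.4, 1.83 and 2.16. The EOM_fiber and TA_fiber values did not overlap, while EOM_synapse and TA_synapse overlapped through the EOM_synapse array of rat 29.

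On the log2 scale Nefm averaged 7.26 ± 0.39 in EOM_fiber and 4.53 ± 0.53 in TA_fiber (SD, n = 4 each). It was higher in EOM_fiber by 2.73 ± 0.37 (SE, 95% interval 1.93 to 3.54, limma adjusted p = 0.000298) and in all 4 rats. Because the TA_fiber arrays lay below the array median, the size of this difference rests on the pseudocount: it was 4.43 with a pseudocount of 1 and 1.49 with 64. In this comparison 15.6% of the 10416 genes tested passed the threshold, 8.40% higher and 7.15% lower, and 8.39% were higher with no overlap of the groups. Its call held in all 31 alternative settings.

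At the junctions Nefm averaged 6.81 ± 1.31 in EOM_synapse and 5.38 ± 0.98 in TA_synapse. The difference was 1.42 ± 0.37 (95% interval 0.62 to 2.23, limma adjusted p = 0.0187), higher in 4 of 4 rats but by 0.10 to 2.39, and 16.4% of all genes passed here, 7.82% higher and 8.61% lower. This call was lost without the rat block (limma adjusted p = 0.0948), with the rat as a random effect (0.0606), without the EOM_synapse array of rat 25 (0.0796) or 27 (0.0681), without the TA_synapse array of rat 27 (0.0697), and without all arrays of rat 15 (0.067), 25 (0.0693) or 27 (0.137).

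Junction and fibre of the same muscle did not differ past the threshold for Nefm. The difference was -0.46 ± 0.37 for EOM_synapse against EOM_fiber (95% interval -1.26 to 0.34, limma adjusted p = 0.491), lower at the junction in 3 rats and higher in 1. For TA_synapse against TA_fiber it was 0.85 ± 0.37 (0.05 to 1.66, limma adjusted p = 0.185), higher at the junction in 3 of 4 rats. Of all genes, 10.1% passed in the first of these comparisons, 5.62% higher and 4.51% lower, and 10.2% in the second, 6.70% higher and 3.53% lower. With arrays centred on their medians the share of higher calls in the first moved to 79.4% of all calls, against 55.5%. The difference between the 2 junction effects, EOM minus TA, was -1.31 ± 0.53 (limma adjusted p = 0.363), below 0 in 4 of 4 rats. In that test 0.922% of all genes passed. From the highest group mean to the lowest, Nefm therefore ran EOM_fiber, EOM_synapse, TA_synapse, TA_fiber. The first pair and the last pair of that order did not differ past the threshold.

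Gap43, the growth cone protein, was also higher in EOM by its brighter probe set, and in TA that probe set was higher at the junction. The dimmer Gap43 probe set, described further below, did not follow it. The brighter probe set, 1367930_at, had intensities of 101, 98.8, 128 and 143 in EOM_synapse in rats 15, 25, 27 and 29. In EOM_fiber it had 94.2, 44.7, 83.5 and 101. In TA_synapse it had 56.6, 24.5, 79.1 and 78.2, and in TA_fiber 4.41, 6.07, 9.19 and 35.1. The EOM_synapse arrays lay within a narrow band, and only rat 29 came near the array median in TA_fiber. TA_synapse and TA_fiber overlapped, since the TA_synapse array of rat 25 was dimmer than the TA_fiber array of rat 29.

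Gap43 averaged 6.52 ± 0.37 in EOM_fiber and 4.87 ± 0.74 in TA_fiber (log2, SD, n = 4 each). It was higher in EOM_fiber by 1.65 ± 0.23 (95% interval 1.16 to 2.14, limma adjusted p = 0.000302) in 4 of 4 rats and with no overlap. In TA_synapse it averaged 6.19 ± 0.49, above TA_fiber by 1.33 ± 0.23 (0.84 to 1.81, limma adjusted p = 0.0018), again in 4 of 4 rats. Both calls held in all 31 alternative settings, but their size did not: with pseudocounts of 1 and 64 the first difference was 2.70 and 0.83 and the second 2.29 and 0.63. With the mean of both probe sets they were 0.95 and 0.95. In the first comparison 15.6% of all genes passed, 8.40% higher, and 8.39% were higher with no overlap. In the second 10.2% of all genes passed, 6.70% higher.

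In EOM_synapse Gap43 averaged 6.95 ± 0.23, higher than in TA_synapse by 0.76 ± 0.23 (95% interval 0.27 to 1.25, limma adjusted p = 0.0348), in 4 of 4 rats and with no overlap. Of all genes, 7.82% passed as higher there and 11.0% were higher with no overlap. This Gap43 call was fragile. Without the rat block the limma adjusted p was 0.14, and without 1 array it was 0.0705, 0.126 or 0.0888 (EOM_synapse, rats 15, 25 and 27), 0.112 or 0.1 (TA_synapse, rats 25 and 29). Without all arrays of 1 rat it was 0.0546 to 0.195, so the call was lost for each of the 4 rats. With the mean of both probe sets the difference was 0.28.

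Within EOM, Gap43 was 0.44 ± 0.23 higher in EOM_synapse than in EOM_fiber (95% interval -0.05 to 0.92, limma adjusted p = 0.254), in 4 of 4 rats but with overlapping groups. The EOM junction effect minus the TA junction effect was -0.89 ± 0.32 (limma adjusted p = 0.29), below 0 in 4 of 4 rats, so the junction effects of the 2 muscles were not shown to differ. By group mean Gap43 ran EOM_synapse, EOM_fiber, TA_synapse, TA_fiber. EOM_synapse and EOM_fiber did not differ past the threshold, and the ranges of EOM_fiber and TA_synapse overlapped.

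**Figure D2:**
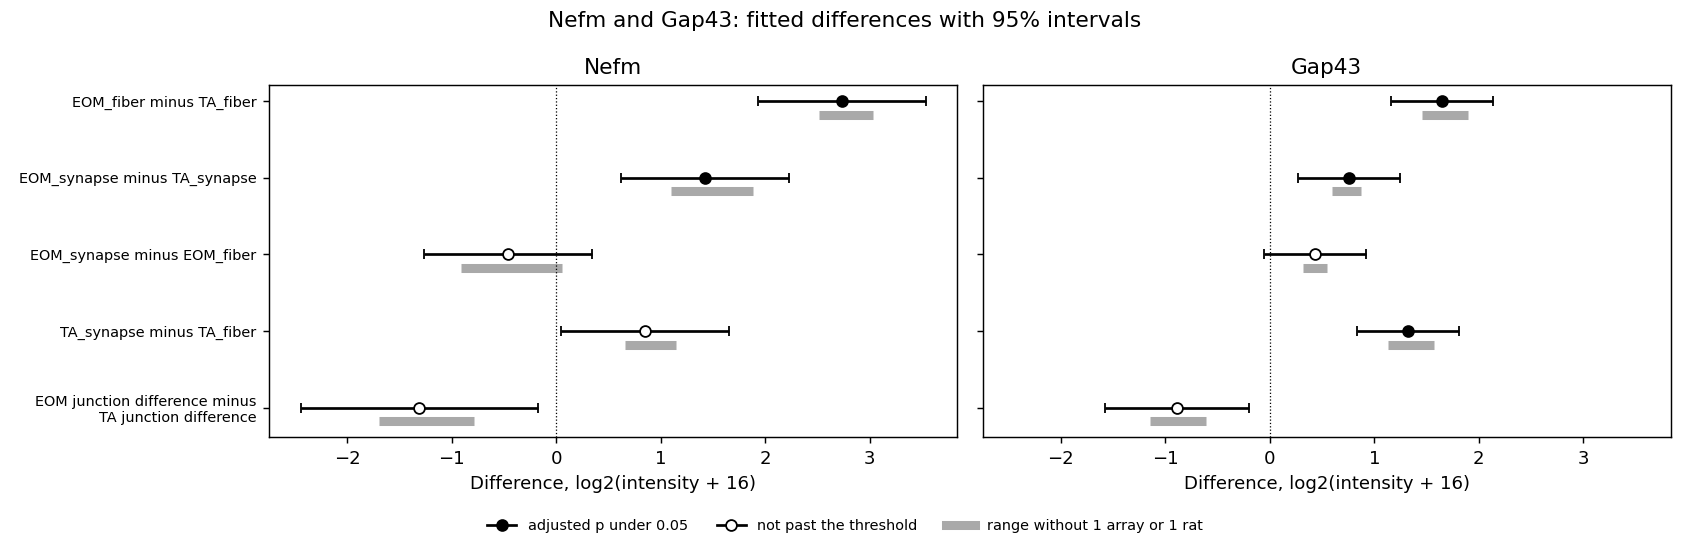
Fitted differences of Nefm (left) and Gap43 1367930_at (right) in log2(intensity + 16), with 95% intervals, for the 4 comparisons of 2 groups and for the difference between the junction effects of EOM and TA. Filled points passed an adjusted p of 0.05, and grey bars span the values with 1 array or 1 rat left out. EOM_fiber minus TA_fiber is the largest difference of both genes, 2.73 for Nefm and 1.65 for Gap43.

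The other neurofilament chains stayed dim. Nefl, the light chain, never reached an array median: probe set 1370058_at ran from 1.07 to 35.6 with a median of 5.39, and 1370059_at from 0.600 to 34.3 with a median of 15.5. The 2 Nefl probe sets shared no pattern over the 16 arrays (r = -0.02, a description across arrays that share rats). Nefh, the heavy chain, ran from 1.93 to 48.7 with a median of 7.82 and was above the median on 1 array, EOM_fiber of rat 29. In EOM_fiber Nefh had 8.10, 16.2, 25.7 and 48.7 in rats 15, 25, 27 and 29, against a TA_fiber median of 7.61. The EOM_fiber minus TA_fiber difference of Nefh was 0.59 ± 0.33. Fitted over all probe sets with no filter, it had a limma adjusted p of 0.35.

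The second Gap43 probe set, 1371287_at, did not follow the first. Its group medians were 19.0 in EOM_synapse, 16.7 in EOM_fiber, 21.9 in TA_synapse and 4.29 in TA_fiber, and its maximum of 46.6 lay in TA_fiber of rat 15. Over 16 arrays it correlated with 1367930_at at r = 0.04, and at -0.47 once group means were removed. Its EOM_fiber minus TA_fiber difference was 0.26 ± 0.30 (limma adjusted p over all probe sets 0.705), against 1.65 for the brighter probe set. In EOM_synapse it was lower than in TA_synapse in 4 of 4 rats, by a difference of -0.20 ± 0.30 (limma adjusted p over all probe sets 0.789), where the brighter probe set was higher. Fitted that way, the Nefl, Nefh and second Gap43 probe sets had limma adjusted p from 0.35 upward in all 5 contrasts.

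Nefm and Gap43 put the rats in different orders on the normalized scale. Within each of the 4 groups, rats 15 and 25 had more Nefm than rats 27 and 29. Over the 4 groups the mean deviation of Nefm from its group mean was 0.23, 0.91, -0.61 and -0.53 log2 in rats 15, 25, 27 and 29. Gap43 was highest in rat 29 and next in rat 27 in all 4 groups, and its mean deviations were -0.14, -0.48, 0.10 and 0.52. After group means were removed the 2 genes correlated at r = -0.52 over 16 arrays, against 0.48 with group means in place. These arrays share 4 rats, so the value is a description. An F test on the rat, chosen after these orders were seen, gave limma adjusted p of 0.191 for Nefm and 0.206 for Gap43, while 0.173% of all genes passed. An animal and a processing batch under the same number cannot be told apart.

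**Figure D3:**
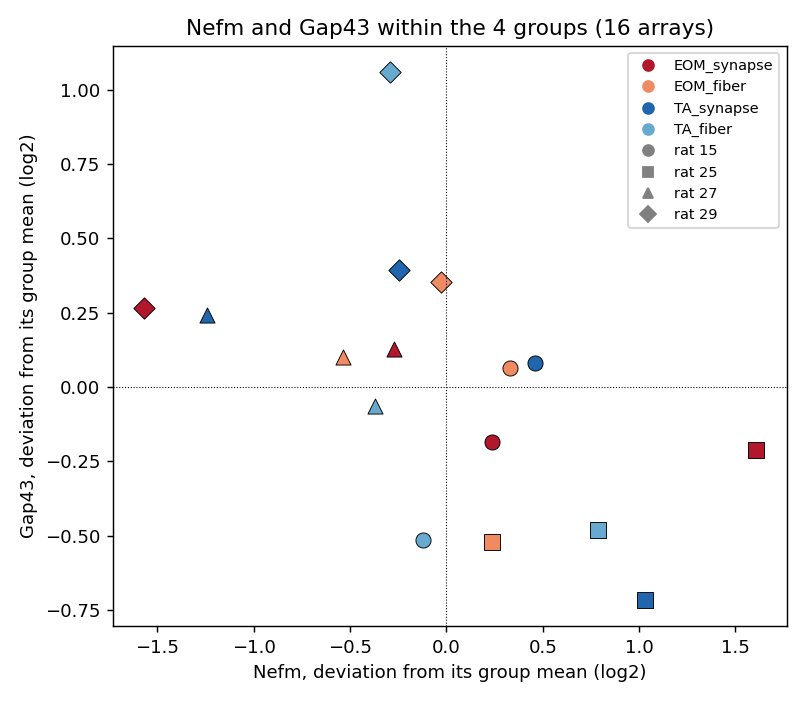
Deviation of Gap43 1367930_at (vertical axis) from its group mean against that of Nefm (horizontal axis), both in log2, for 16 arrays coloured by group and shaped by rat. Rats 27 and 29 lie left of 0 for Nefm in every group, and rat 25 lies right of 0 for Nefm and below 0 for Gap43 in every group.

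Other genes of the neuronal cytoskeleton gave a mixed picture. Of 16 listed genes, tubulins, microtubule-associated proteins, stathmins and other neuronal filaments, 12 could be tested. In EOM_fiber against TA_fiber 3 were higher (8.40% of all genes were) and 0 lower, with a median difference of 0.14 against 0.03 for all genes. Map2, a microtubule-associated protein of dendrites, was higher by 1.88 ± 0.27 (limma adjusted p = 0.000395, and 1.13 with the mean of its probe sets) and the beta-tubulin Tubb2b by 1.45 ± 0.31 (0.00584). Tubb2a was higher by 0.99 ± 0.24 (0.012), a call lost without rat 25 (0.0573) or rat 27 (0.053). The neuron-specific tubulin Tubb3 differed by 0.34 ± 0.54 (0.718).

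In EOM_synapse against TA_synapse, where 7.82% of all genes were higher and 8.61% lower, 2 of the 12 were higher, Map2 (1.12 ± 0.27) and Tubb2a (0.85 ± 0.24), and 1 was lower, the axonal tau gene Mapt (-1.15 ± 0.20, limma adjusted p = 0.00135). Map2 lost that call without rat 15 (0.0654) or 27 (0.0522) and with the mean of its probe sets (0.60, limma adjusted p = 0.162), and Tubb2a without rat 15, 27 or 29 and without 6 of the 8 arrays compared (all but EOM_synapse and TA_synapse of rat 25). Mapt was also 0.84 ± 0.20 lower in EOM_synapse than in EOM_fiber (limma adjusted p = 0.0155), lost without rat 15, 25 or 29, without EOM_synapse of rat 15 or 25, or without EOM_fiber of rat 25 (0.0516 to 0.104). Between TA_synapse and TA_fiber 0 of the 12 passed by limma, and 3, all higher at the junction, had an unadjusted p under 0.05. The share of all genes at that unadjusted threshold is not given here. The neuronal filament genes Ina and Prph lay below the filter, at no more than 46.5 and 58.6.

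Some genes of axon growth and regeneration were higher at the junction. Of 27 listed genes 16 were tested. In TA_synapse against TA_fiber 6 were higher and 1 lower (6.70% and 3.53% of all genes), with a median difference of 0.70 against -0.01 for all genes, and in EOM_synapse against EOM_fiber 6 were higher, where 5.62% of all genes were, and 0 lower (median 0.68 against -0.04). The adhesion molecule Ncam1, which muscle also makes at the junction, was higher by 4.98 ± 0.26 in TA_synapse (limma adjusted p = 4.31e-08) and by 3.60 ± 0.26 in EOM_synapse (1.76e-06). With the mean of its probe sets Ncam1 stood at 1.79 in TA and 1.17 in EOM, and both calls held. Marcks, a membrane-bound kinase substrate related in function to Gap43, was higher by 2.75 ± 0.42 in TA_synapse (0.000749) and by 2.13 ± 0.42 in EOM_synapse (0.00595, and 0.0818 without rat 15), and by 0.997 and 1.30 with the mean of its probe sets. The axonal adhesion gene L1cam was higher by 1.65 in TA_synapse and 1.37 in EOM_synapse (0.00432 and 0.0146), the second lost without EOM_synapse of rat 25 or 27 or without rat 15 or 27 (0.0532 to 0.0673).

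Between the muscles, 5 of these 16 genes were higher in EOM_fiber and 2 in EOM_synapse (8.40% and 7.82% of all genes), with 0 lower by limma in either. The microtubule kinase Dclk1 was 2.56 ± 0.35 higher in EOM_fiber than in TA_fiber (limma adjusted p = 0.000299), but 0.66 with the mean of its probe sets (0.0513), and the semaphorin receptor Nrp1 was 1.02 ± 0.20 higher (0.00439). That Nrp1 call was lost with arrays centred on their medians (0.78, limma adjusted p = 0.115) and with only the arrays of the contrast (0.0604). Marcks, Ncam1 and Dpysl2 passed there at 0.0284, 0.025 and 0.0395, and each call was lost without EOM_fiber of rat 25 or 27, without TA_fiber of rat 25, or without other single arrays. With the mean of the probe sets the Marcks and Ncam1 calls were lost too (0.37 and 0.35). At the junctions Nrp1 (1.45 ± 0.20) and Dpysl2, a mediator of semaphorin signals (1.27 ± 0.22), were higher in EOM_synapse than in TA_synapse. Basp1, a growth cone protein close to Gap43 in function, had probe sets that reached 44.6 and 62.0, above the array median on 0 and 3 arrays, and was not tested. Stmn2, a stathmin of growing axons, had a probe set that reached 104 in 1 TA_fiber array, with a median of 11.9. Its other probe set reached 34.5 with a median of 15.9.

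Genes of the neuron body and the nerve terminal were mostly dim. Of 30 listed, 11 were tested. Snap25, Syt1 and Chat, which serve transmitter release and acetylcholine synthesis, the acetylcholine and choline transporters Slc18a3 and Slc5a7, and the neuronal genes Uchl1 and Rbfox3 lay below the filter. Chat ran from 1.10 to 37.9 and Uchl1 from 2.55 to 44.9, both under the array median on every array. Of the 11, 2 were higher in EOM_fiber than in TA_fiber (8.40% of all genes were): the synuclein gene Sncg by 1.47 ± 0.24 (limma adjusted p = 0.00117) and the vesicle GTPase Rab3a by 1.29 ± 0.30 (0.00983, and 0.0754 without rat 15). By limma 0 of the 11 passed in the other contrasts. At an unadjusted p under 0.05 there were 2 in EOM_synapse against TA_synapse, of which 2 were higher. In EOM_synapse against EOM_fiber there were 3, of which 0 were higher. TA_synapse against TA_fiber had 3, of which 2 were higher, and the difference of junction effects had 0. The share of all genes at that unadjusted threshold is not given here, so these counts have no background beside them. The synaptic vesicle gene Syp differed by 0.87 ± 0.29 between TA_synapse and TA_fiber (0.0783).

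**Figure D4:**
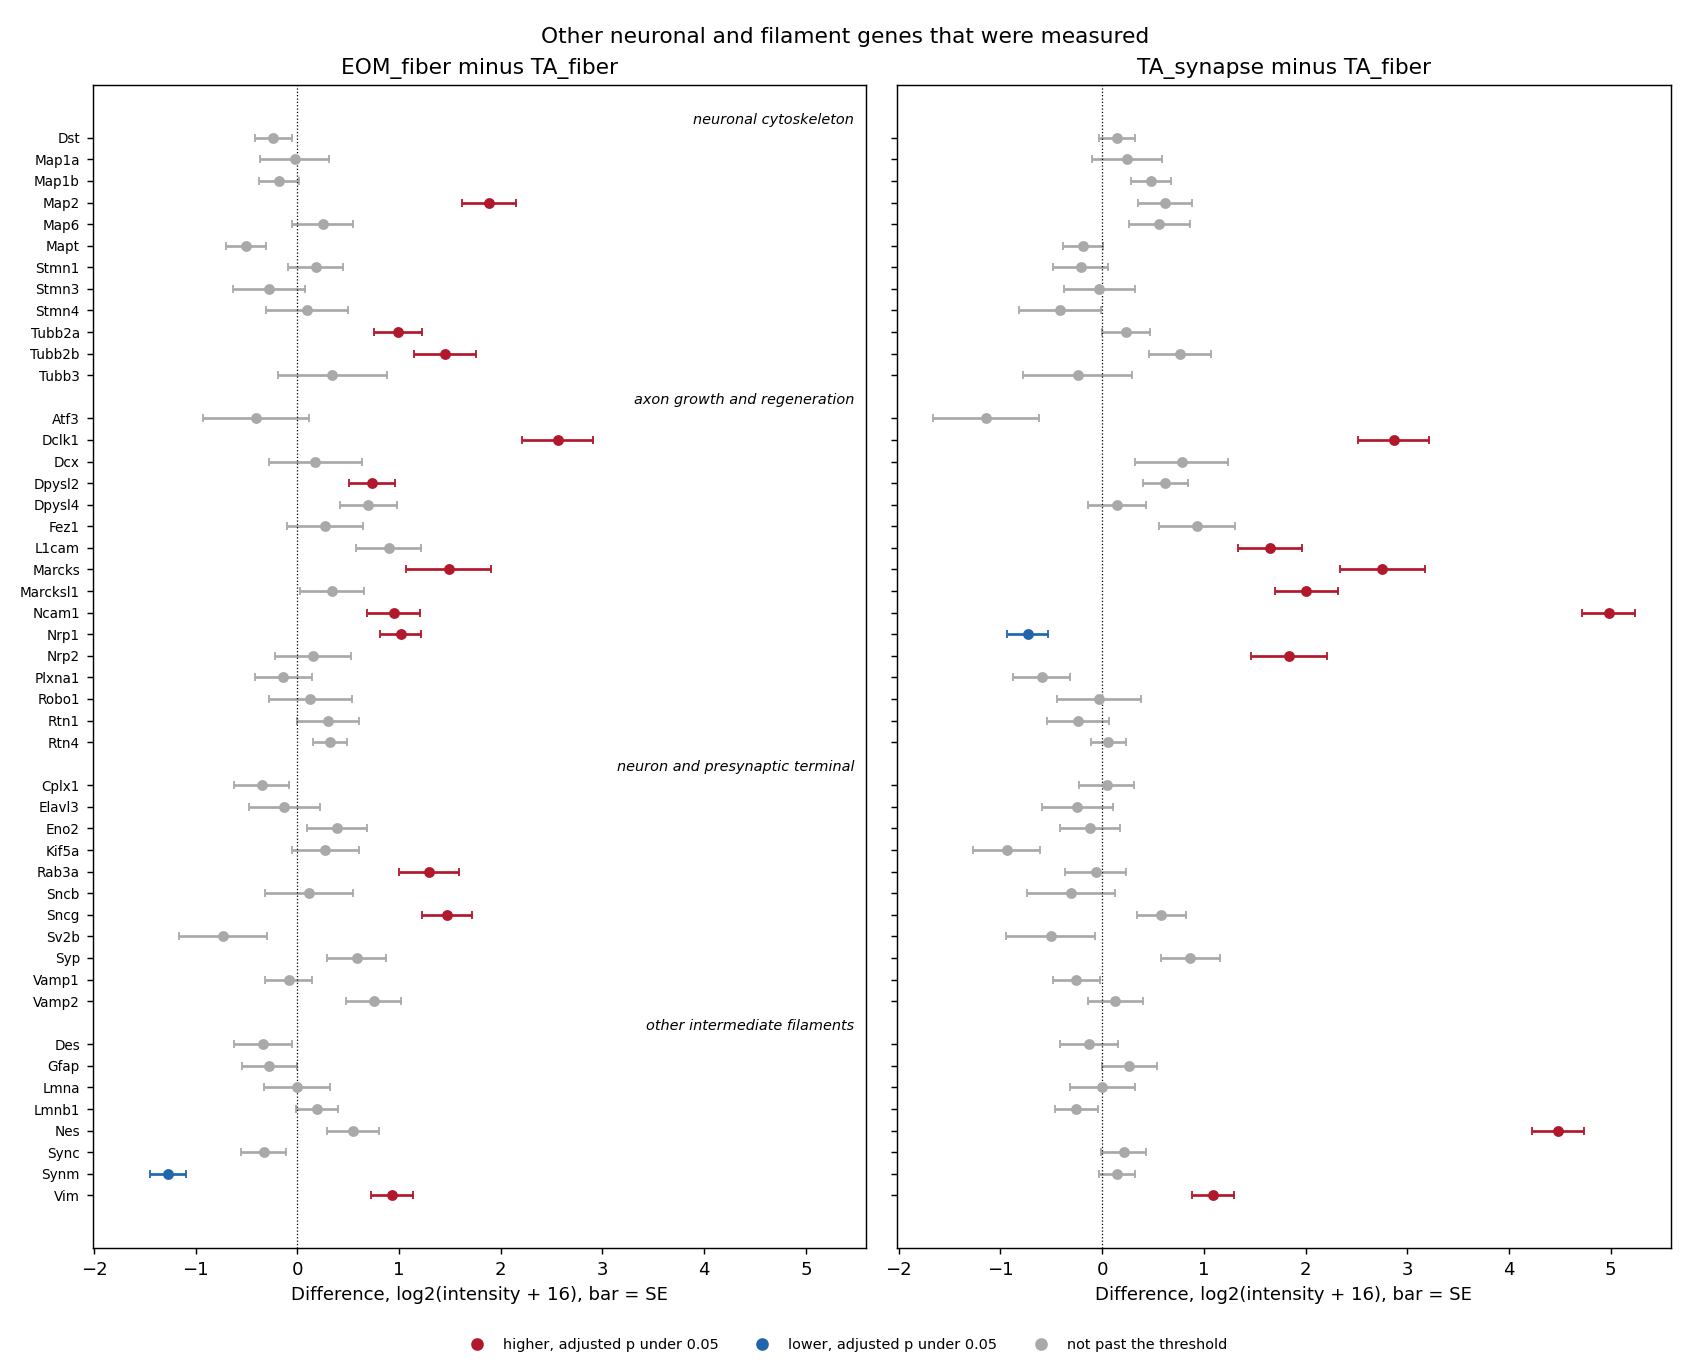
Differences in log2(intensity + 16), with SE, of the tested genes of 4 lists (neuronal cytoskeleton, axon growth and regeneration, neuron and presynaptic terminal, other intermediate filaments) in EOM_fiber minus TA_fiber (left) and TA_synapse minus TA_fiber (right). Red and blue mark higher and lower genes past an adjusted p of 0.05: Map2, Dclk1 and Sncg stand out on the left, and Ncam1, Nes, Dclk1 and Marcks on the right. With the mean of its probe sets Dclk1 was at 0.66 on the left and 0.68 on the right. Both Dclk1 calls were then lost (limma adjusted p = 0.0513 and 0.0589).

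Intermediate filament genes of other cells went in both directions. Of 8 tested, Vim, the filament of connective tissue and Schwann cells, was higher in EOM_fiber than in TA_fiber (0.93 ± 0.20), as Nefm was, and Synm, a muscle filament, was lower (-1.27 ± 0.18, limma adjusted p = 0.000332, and -0.72 with the mean of its probe sets). These were the only ones of the 8 past the threshold there, where 8.40% of all genes were higher and 7.15% lower. With only the arrays of that contrast the Vim call was lost (limma adjusted p = 0.0648). Nes, a filament known at the postsynaptic part of the fibre, was higher by 3.10 ± 0.25 in EOM_synapse than in EOM_fiber and by 4.48 ± 0.25 in TA_synapse than in TA_fiber (4.95e-06 and 7.64e-08). Vim was higher at both junctions too, by 1.01 in EOM and 1.09 in TA. The EOM call of Vim was lost without rat 27 (limma adjusted p = 0.0651) or rat 29 (0.0513). So 2 of the 8 were higher at each junction, where 5.62% of all genes were in EOM and 6.70% in TA. In EOM_synapse against TA_synapse, 7.82% of all genes were higher and 8.61% lower. Of the 8 there, 1 was higher (Vim, 0.86) and 3 lower, Synm (-1.77, and -0.91 with that mean), Des (-1.14) and Nes (-0.84). Des and Nes lost that call without EOM_synapse of rat 15 or 25 or without TA_synapse of rat 29, among other arrays, and Vim lost it without rat 25 or 27.

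Markers of other cells also differed between the captures. The 11 tested Schwann cell genes summed to 7918 to 15106 in EOM_synapse and 1928 to 2944 in EOM_fiber, and to 3456 to 5499 in TA_synapse and 454 to 825 in TA_fiber (normalized intensity). Pmp22 alone made up much of these sums. Its median deposited intensity was 6739, 1676, 3476 and 354 in those 4 groups, beside median sums of 11947, 2780, 4992 and 666. Of the 11 genes, 6 were higher at each junction than in fibre, where 5.62% of all genes were higher in EOM and 6.70% in TA. In EOM_fiber 4 were higher than in TA_fiber, where 8.40% of all genes were, among them the myelin genes Pmp22 (2.18 ± 0.23) and Mbp (1.88 ± 0.36, and 0.80 with the mean of its probe sets). The 9 tested fibroblast genes summed to 13640 to 28375 in EOM_synapse, 4589 to 18486 in EOM_fiber, 7952 to 19965 in TA_synapse and 1802 to 6468 in TA_fiber. Of those, 7 were higher in EOM_fiber than in TA_fiber, and 7 in TA_synapse than in TA_fiber (8.40% and 6.70% of all genes). The 10 tested denervation and satellite cell genes summed to 4979 to 8193 in EOM_synapse and 1802 to 2212 in TA_synapse. In fibre they summed to 5418 to 13884 in EOM_fiber and 1543 to 2746 in TA_fiber. These sums did not overlap between the muscles, but a sum follows its brightest genes. Gene by gene, 1 of the 10 was higher and 1 lower in EOM_synapse than in TA_synapse (7.82% and 8.61% of all genes). The median difference there was 0.25, against 0.01 for all genes. Within groups the mean log2 level of the fibroblast list correlated at r = 0.66 with Gap43 and -0.68 with Nefm (16 arrays, group means removed). The denervation and satellite cell list stood at 0.42 and -0.64, and the Schwann list at 0.04 and -0.13. A like pattern was seen for the axon growth list, at 0.55 and -0.62. The endothelial list stood at 0.21 and -0.48, and the acetylcholine receptor and postsynaptic list at -0.45 and 0.22. In the same order, the neuronal cytoskeleton list stood at -0.10 and -0.34, and the neuron and presynaptic terminal list at 0.21 and 0.09. The list of other intermediate filaments stood at -0.32 and 0.20, and the muscle fibre list at -0.15 and 0.16. For the macrophage list the values were 0.01 and 0.18, and for the retina list 0.05 and -0.18. The part of these cells in the results on Nefm and Gap43 was not tested.

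In EOM_fiber against TA_fiber, 3 of 8 macrophage genes, 2 of 9 endothelial genes and 3 of 10 denervation and satellite cell genes were higher and 0 lower, against 8.40% of all genes higher and 7.15% lower. Of 19 muscle fibre genes 3 were lower there and 0 higher. In EOM_synapse 9 of the 19 were lower than in TA_synapse (8.61% of all genes, median difference -0.67) and 5 lower than in EOM_fiber (4.51% of all genes), with 0 higher in either. Among 16 acetylcholine receptor and postsynaptic genes 7 were higher in EOM_fiber than in TA_fiber and 1 lower. At each junction 12 were higher than in fibre, where 5.62% of all genes were in EOM and 6.70% in TA. In EOM_synapse against TA_synapse 0 of the 16 were higher and 3 lower (7.82% and 8.61% of all genes). For the difference of junction effects 0 were higher and 3 lower, where 0.922% of all genes passed. Of 20 retina genes, listed because the eye was frozen with its muscles, only 3 were tested. The guanylate cyclase activator Guca1a was higher in EOM_fiber (5.79) and EOM_synapse (4.48) than in the matching TA captures. The photoreceptor genes Pde6g and Rom1, above the array median on 14 and 7 arrays, differed by -0.01 ± 0.26 and 0.04 ± 0.28 in EOM_fiber minus TA_fiber (limma adjusted p = 0.978 and 0.943). Sag, Pde6b and Crx were below the array median on all 16 arrays.

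The genes most like Nefm over the 16 arrays were Abcg1 (r = 0.88), Tmod1 (0.88), Dnajc6 (0.88), Zmiz1 (0.87) and Ahi1 (0.86). Tmod1 caps actin filaments and Abcg1 exports cholesterol. With group means removed, the closest were Klhl7 (0.93), Chmp1a (0.91), Eif2a (0.89), Tef (0.89) and Rictor (0.88). The genes most like Gap43 were Slc22a17 (0.95), Itm2c (0.93), Sox4 (0.92), Apeg3 (0.91) and Cd81 (0.91), and with group means removed Cyp4f6 (0.88), Sphk2 (0.85), Lxn (0.84), Zbtb9 (0.83) and Klf2 (0.82). None of these 20 genes was on a list of neuronal or axonal genes. Those lists held only 12, 16 and 11 of the 10416 genes tested, so such an absence says little and nothing is read from it. Each of the 20 is at the top of 10416 genes over 16 arrays of 4 rats.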

How the data were processed

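Junction and fibre captures were taken by laser from muscle sections stained for acetylcholinesterase, per the series' design text. RNA was amplified over 2 rounds and hybridised to Affymetrix rat arrays, per the labels' protocols. The authors deposited linear intensity, 1 value for each of 31099 probe sets, with a 2% trimmed mean of 150.06 to 150.08 on every array. For the summarising software, no name was given in the sources used here. Precision is limited by the number of arrays.

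From these values the 57 controls were removed, 16 was added, log2 taken and arrays quantile normalized. Differences are therefore of log2(intensity + 16), which understates the change of dim genes. Names came from the array annotation, updated through gene IDs to current GRCr8 symbols: 20826 probe sets had 1 gene, 436 several and 9780 none. Probe sets above the array median on at least 4 arrays were tested, the brightest standing for its gene (10416 genes), with limma 3.58.1 in R 4.3.3: 4 group means with rat terms (residual df 9, prior df 4.58), 5 contrasts, and p-values adjusted by Benjamini-Hochberg within a contrast over all genes, threshold 0.05. The steps were tested on simulated data. Correlations are descriptions.

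The design text names 4 rats and the titles carry 4 numbers, read as animals. Of 24 same-number pairs, 16 correlated over 0.1 (mean r 0.112, -0.0666 to 0.245) after group means were removed, and 14 of the 16 arrays resembled an array of their own number most. The shared number may also stand for a batch. Where nothing says that regions were captured separately, p-values measure only the spread between these samples.

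Members and the 12 gene lists were chosen with earlier results of these data known. Named are all members, genes past the threshold (up to 6 of a neuronal, Schwann or filament list and 3 of others; not all are printed), label checks and the 5 most similar genes. Tubb3, Syp, Pde6g, Rom1 and genes below the filter were named after their values were seen. Alternatives covered the block, scaling, pseudocount, filter, probe set choice, prior, and each array and rat.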

Additional observations from a re-analysis of the deposited data

Results flagged for a closer look

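Of 24 groups of 4 arrays (6 probe sets in 4 groups), 2 held an array far from the other 3, and chance flags about 1 in 20 groups. For the Nefl probe set 1370058_at, TA_synapse of rat 25 stood at 5.84 (log2, intensity 35.6), while the other TA_synapse arrays lay from 4.13 to 4.34. For the Gap43 probe set 1371287_at, TA_fiber of rat 15 stood at 6.02 (intensity 46.6), while the other TA_fiber arrays lay from 4.13 to 4.39. The Nefl value was below and the Gap43 value slightly above its array's median. The other Nefl probe set had 5.51 and the other Gap43 probe set 4.35 on the same arrays. Neither probe set passed the filter on dim signals.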

How the results depend on the processing

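The higher levels of Nefm and Gap43 in EOM_fiber than in TA_fiber, and of Gap43 in TA_synapse than in TA_fiber, passed in all 31 settings (16 without 1 array, 4 without 1 rat, 11 others). The calls between EOM_synapse and TA_synapse did not. For Nefm (1.42) the call was lost without the replicate block and with a random rat effect. For Gap43 (0.76) it was lost in both of these, with no filter and with a trend in the prior, and also with a pseudocount of 1 (0.93) or the mean of the probe sets (0.28). Without 1 array or rat the Nefm difference was 1.10 to 1.88 and the Gap43 difference 0.59 to 0.87. The Nefm difference between EOM_synapse and EOM_fiber lay from -0.91 to 0.057, above 0 without EOM_synapse of rat 29 (0.0029) or without rat 29 (0.057). The pseudocount set the size of differences: for EOM_fiber minus TA_fiber, Nefm had 4.43 with a pseudocount of 1 and 1.49 with 64. As deposited, the median of all genes was 0.11 in that contrast, and Nefm and Gap43 stood 2.64 and 1.66 above it. Median centring put the median at 0.10 for the difference of junction effects, where Nefm and Gap43 stood at -1.16 and -0.83 from it. Genes past the threshold numbered 1620, 1712, 1055, 1066 and 96 in the order of the plot of fitted differences. With only the arrays of a contrast they numbered 582 (EOM_fiber minus TA_fiber) and 606 (TA_synapse minus TA_fiber). With median centring they numbered 1139 (EOM_synapse minus TA_synapse), 689 (EOM_synapse minus EOM_fiber, 79.4% higher against 55.5%) and 56 (junction effects). The last count was 46 and 218 with pseudocounts of 1 and 64 and 204 with a prior trend. Without 1 array or rat the counts ran 976 to 1717, 947 to 1940, 491 to 1146, 602 to 1210 and 23 to 105. Of 68 other gene results, 37 kept their call in all settings, 31 lost it in some and 0 changed direction. Causes were not tested.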
